A study of Mus musculus with 6 samples.

Results

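The Wnt ligands, their Frizzled receptors, the secreted Wnt inhibitors and a set of coreceptors, transducers and feedback genes were examined in cultured mouse neural stem cells. Members were the genes whose symbol is that of a Wnt, Fzd, Sfrp or Dkk gene, together with Lrp5, Lrp6, Axin2, Lef1, Tcf7l1, Tcf7l2, Wif1, Notum, Nkd1, Frzb and Ctnnb1. Each was represented by the probe set that had 1 gene symbol and the highest mean over the 6 arrays. This gave 48 measured members out of 19938 genes: 19 ligands, 10 receptors, 2 coreceptors, 11 secreted inhibitors, 4 transducers and 2 feedback genes. Tcf7 was also sought and is not analysed here.

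The cultures came from 2 places along the ventricles of wild type C57BL/6 embryos, all labelled female and at embryonic day 17.5, with 3 arrays from lateral and 3 from the third ventricle cultures, both from the subventricular zone. Every culture grew in FGF and EGF at 20 ng/ml each, so the 2 groups differ by region of origin alone as far as the labels say. The cells were expanded in low-attachment dishes in medium with N2 and B27, so the values are those of cultures, not of the tissue. The labels do not give the passage number or say whether embryos were pooled. The comparison asks which transcripts differ between the regions. Values are log2 RMA expression, and a difference is the mean of the third ventricle arrays minus that of the lateral ventricle arrays.

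Wnt proteins are secreted, lipid-modified signals that bind a Frizzled receptor together with the coreceptor LRP5 or LRP6. Binding halts the breakdown of beta-catenin, encoded by Ctnnb1, which then enters the nucleus and acts through factors of the TCF/LEF family on targets such as Axin2. Other Wnts, with Wnt5a as the best known, signal mainly without beta-catenin, through Frizzled and Ror receptors, on cell shape and movement. In the developing brain Wnts pattern the dorsal telencephalon and the diencephalon and act on the division of progenitors.

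Of the 10 neural stem cell markers checked, 9 lay above a background gauge in all 6 arrays, Sox2, Nes, Vim and Fabp7 among them, and Prom1 did so in 5. The gauge was the 95th percentile of 1027 olfactory receptor genes in each array, 5.03 to 5.16 on the log2 scale. One lateral array, array 2, was unlike its group. Over all genes its correlation was 0.991 with each array of the third ventricle, but 0.980 and 0.982 with lateral arrays 1 and 3. Its 19 cell cycle genes averaged 9.10 on the log2 scale, within the 9.06 to 9.11 of the third ventricle arrays, while lateral arrays 1 and 3 averaged 7.25 and 7.69. For the astrocyte, choroid plexus, meningeal fibroblast, endothelial and microglia marker lists, the ranges of the mean log2 values overlapped between the regions. Mean log2 values of the oligodendrocyte, neuronal and ependymal lists lay apart by region. They were 6.86 to 6.88 in the lateral and 6.41 to 6.52 in the third ventricle arrays for 7 oligodendrocyte markers. Of these Pdgfra passed as lower, with a difference of -1.79, and Sox10 had -0.74, while Olig1 and Olig2 lay on the other side at 0.17 and 0.09. For 8 neuronal markers, of which 0 passed, they were 6.06 to 6.28 and 5.73 to 5.82. Dcx had -1.63 and Map2, on the other side, 0.24, and Dcx and Tubb3 passed as lower without lateral array 2 (limma adjusted p 0.00523 and 0.0175). Sox10 also passed as lower in that fit (limma adjusted p 0.0116). The stem cell marker Nes (0.0103) and all 19 cell cycle genes passed as higher in it, against 8.25% of all genes called in either direction. Over all 6 arrays 0 of the 19 passed. These genes are among those that set lateral array 2 apart, so leaving it out favours such calls. Nes in that array, at 7.70, was likewise near the 7.51 to 7.67 of the third ventricle arrays. For 6 ependymal markers, of which 0 passed, the means were 4.98 to 5.08 and 5.16 to 5.28. Of the oligodendrocyte markers 6 lay above the gauge in all arrays. Stmn2, Gad2 and Slc17a6 of the neuronal and Dnah5, Tekt1 and Ak7 of the ependymal markers lay below it in all. The part of these cell types, and of cell division, in the differences below was not tested. Arrays are labelled as biological replicates, with no link to an animal, and a p-value here reflects how much these cultures varied.

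Wnt5a had a 2.26-fold higher mean in the third ventricle cultures, just short of the threshold (limma, adjusted p = 0.0526), and it was the only member that differed by more than 1 on the log2 scale (2.08% of members, against 220 of all 19938 genes). The difference was under 0.3 in size for 43 of the 48 members (89.6%) and for 86.1% of all genes, so the members as a whole lay close to the background. At an adjusted p below 0.05 limma called 0 of the 48 members, against 46 of 19938 genes (0.231%). At an unadjusted p below 0.05 there were 5 members (10.4%), Wnt5a, Wnt1, Lrp6, Sfrp2 and Axin2, against 12.6% of all genes. The groups did not overlap for 8 members (16.7%), against 17.0% of all genes. The share of the 8 lies near the background. By direction, 2 of the 48 members, Wnt5a and Axin2, were higher in the third ventricle arrays, against 7.77% of all genes. The other 6, Lrp6, Sfrp2, Wnt1, Wnt6, Fzd6 and Wif1, were lower, against 9.24%. Of these, Wnt1, Wnt6, Fzd6 and Wif1 did not lie above the gauge in any array. The median difference was -0.014 over the members and -0.018 over all genes, with 24 members on each side of 0.

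Lateral array 2 was singled out by its values, not by the labels, so a fit without it is no separate test. Without lateral array 2, limma called 1644 of all genes (8.25%) and 1 of the 48 members (2.08%), again Wnt5a. Lateral array 2 lay nearer to the third ventricle mean than to the mean of lateral arrays 1 and 3 for 21 members (43.8%) and for 58.8% of all genes. RMA compresses low values, so differences of dim genes can be understated. A total of 25 members lay above the gauge in all 6 arrays, 9 in some and 14 in none. For those in none, the values do not show which region had more transcript. Among the 25, the 95% interval of the difference lay within 1 log2 unit of 0 for 24, all but Wnt5a, as it did for 10290 of the 11020 genes above the gauge in all 6 arrays. Signals of different probe sets are not set against each other here.

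**Figure D1:**
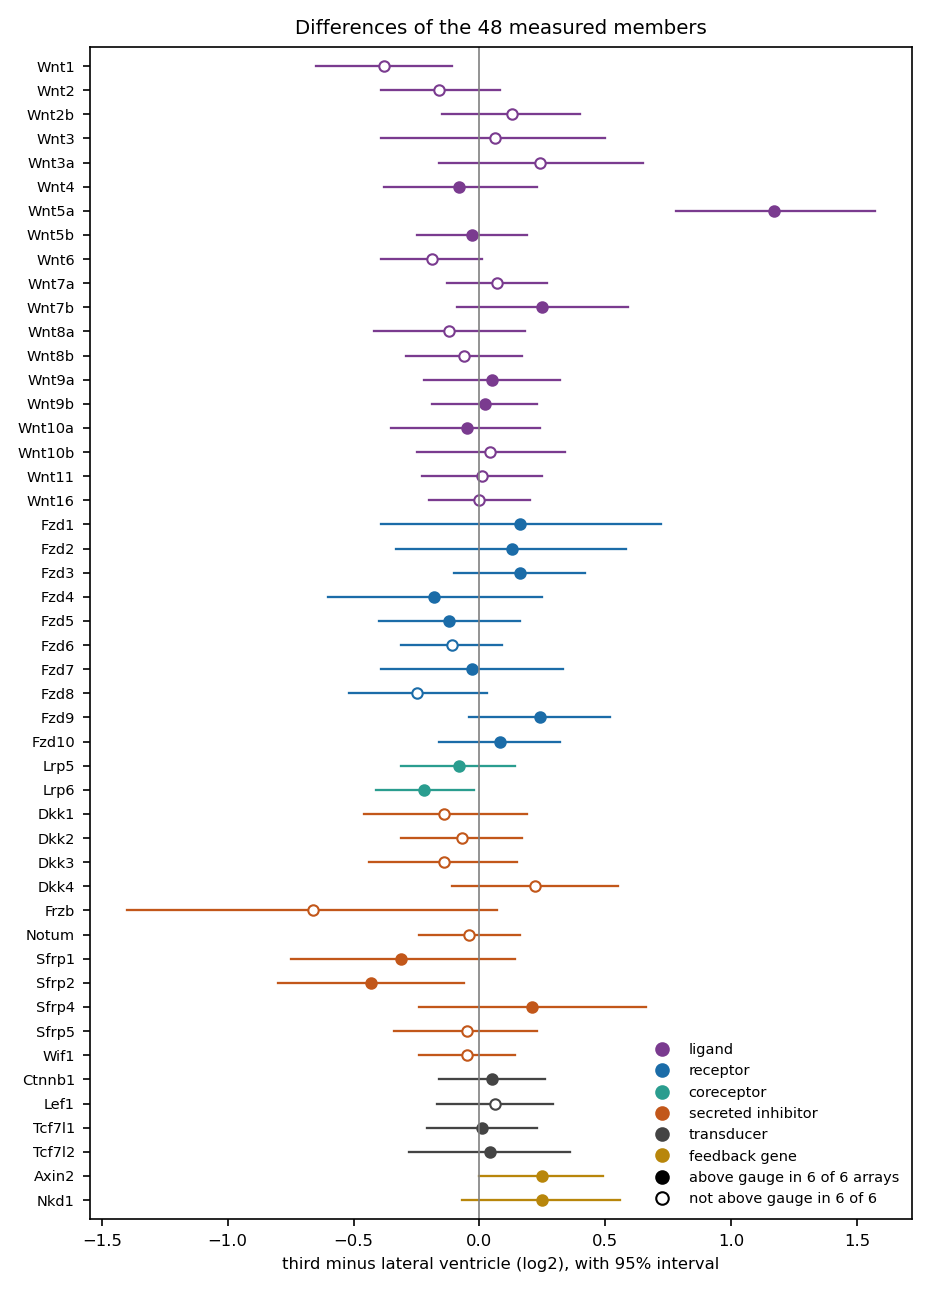
Difference between the third and the lateral ventricle cultures (log2, horizontal axis) for each of the 48 members, with the 95% interval from limma over 3 arrays in each group, coloured by role and filled where the gene lay above the background gauge in 6 of 6 arrays. Wnt5a, at 1.17, is the member whose interval lies farthest from 0, and most others lie between -0.3 and 0.3.

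To place the genes of the pathway beside the letters that TCF/LEF factors are known to bind, promoter windows of 250 bases before the transcription start were read from RefSeq (GRCm38.p6), which held an entry for 33 of the 48 members and none for Wnt5a or Lrp6. The letters searched, on both strands, were CTTTG followed by A or T and then again by A or T. They were found in 6 of 41 member windows (14.6%), from Dkk1, Fzd7, Lef1, Tcf7l2, Wnt11 and Wnt5b, and in 14.8% of all 32851 windows. The median G+C content was 66.8% in the member windows and 52.4% in all. The windows printed here are those of Axin2 and Sfrp2, members with a window, groups that do not overlap and values above the gauge in all arrays, then Dkk1 and Fzd7, which have a single window each and hold the letters. All run 5′ to 3′ with matches in capitals, and the windows of Axin2 and Sfrp2 hold none. They lie at chr11:108920099-108920348 (plus strand), chr3:83766071-83766320 (plus), chr19:30549497-30549746 (minus) and chr1:59481897-59482146 (plus).
Axin2: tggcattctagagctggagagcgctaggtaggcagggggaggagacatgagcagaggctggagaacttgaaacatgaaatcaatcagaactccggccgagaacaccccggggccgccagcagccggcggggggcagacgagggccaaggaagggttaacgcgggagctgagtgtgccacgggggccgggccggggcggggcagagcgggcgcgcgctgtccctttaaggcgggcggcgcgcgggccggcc
Sfrp2: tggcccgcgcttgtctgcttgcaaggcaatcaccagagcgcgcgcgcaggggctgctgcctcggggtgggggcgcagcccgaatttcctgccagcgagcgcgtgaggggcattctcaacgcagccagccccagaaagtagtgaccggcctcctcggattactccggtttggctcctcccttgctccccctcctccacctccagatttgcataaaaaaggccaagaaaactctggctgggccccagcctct
Dkk1: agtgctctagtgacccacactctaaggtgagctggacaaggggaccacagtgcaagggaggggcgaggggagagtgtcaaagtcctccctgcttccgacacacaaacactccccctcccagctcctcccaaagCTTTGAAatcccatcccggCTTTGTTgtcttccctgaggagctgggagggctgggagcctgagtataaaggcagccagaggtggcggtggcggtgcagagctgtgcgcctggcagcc
Fzd7: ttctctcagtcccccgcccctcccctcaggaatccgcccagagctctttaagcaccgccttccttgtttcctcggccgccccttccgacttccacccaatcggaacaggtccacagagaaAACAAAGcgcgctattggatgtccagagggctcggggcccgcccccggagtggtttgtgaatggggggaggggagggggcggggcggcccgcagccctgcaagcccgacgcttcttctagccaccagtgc
The 2 matches in Dkk1 end 110 and 91 bases before the start, and the 1 in Fzd7 ends 123 bases before it and reads on the other strand. A match is a description of letters, and the windows leave out enhancers and introns.

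Among the ligands, Wnt5a was the one with a large difference. Its log2 values were 5.32, 5.89 and 5.64 in lateral arrays 1, 2 and 3 and 6.56, 7.04 and 6.77 in arrays 1, 2 and 3 of the third ventricle. The groups did not overlap, and all 6 values lay above the gauge. The means were 5.62 ± 0.29 and 6.79 ± 0.24 (SD, n = 3), a difference of 1.17 (SE 0.17, 95% interval 0.78 to 1.57). In limma the adjusted p was 0.0526 over all arrays and 0.00219 without lateral array 2, where the difference was 1.31. Lateral array 2 had the highest lateral value, 5.89, so leaving it out raises the difference. That value lay below the mean of the third ventricle arrays by 0.90. The part of cell division in the Wnt5a difference was not tested. The gene was also called under cyclic loess normalization (0.0493), a trended and robust variance prior (0.0428) and array weights (0.0193). It was not called with a mean over probe sets, a filter on dim genes or repeated quantile normalization (adjusted p 0.0532 to 0.056 in limma), nor when any of the other 5 arrays was left out (adjusted p 0.0921 to 0.278, difference 1.02 to 1.29).

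Wnt5a is also made by meningeal and other mesenchymal cells. The labels name no such cells. Of 7 meningeal fibroblast markers Dcn, Lum, Foxc1 and Pdgfrb lay below the gauge in all 6 arrays, and Col1a1, Col1a2 and Zic1 above it in all. The mean log2 value of the 7 was 4.74 to 4.87 in the lateral and 4.76 to 4.84 in the third ventricle arrays, ranges that overlap. Choroid plexus, a further Wnt5a source at the ventricles, was gauged by 6 markers with means of 5.15 to 5.35 and 5.20 to 5.25, of which Ttr, Kl and Clic6 lay below the gauge in all arrays and Folr1, Kcnj13 and Otx2 above it in all. The part of meningeal or choroid plexus cells in the Wnt5a difference was not tested. In bulk RNA, fewer cells that express a gene and less RNA per cell cannot be told apart.

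**Figure D2:**
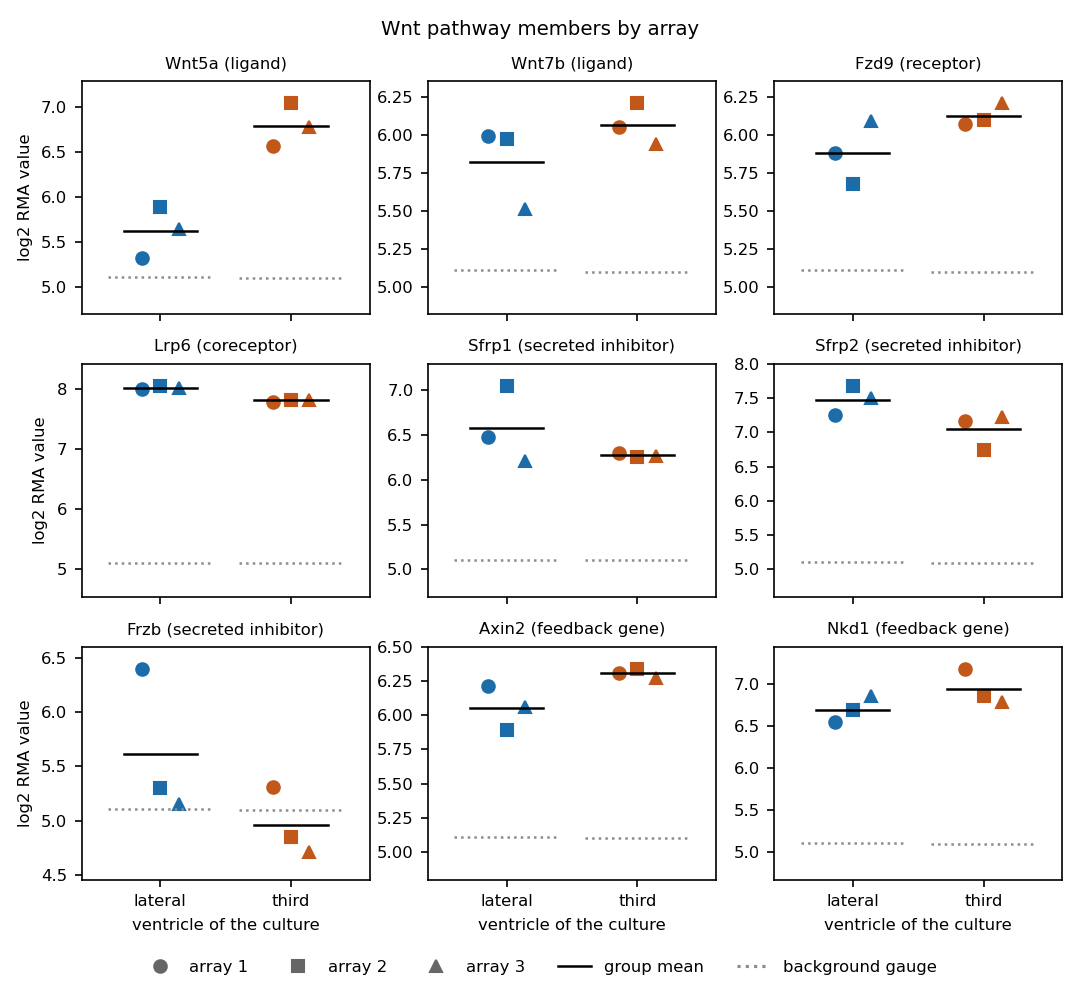
Log2 RMA values (vertical axes, each with its own range) of 9 members in the 3 arrays of the lateral and the 3 of the third ventricle. Symbols mark the array number, black lines the group means and dotted lines the background gauge. The values of Wnt5a in the third ventricle arrays, 6.56 to 7.04, all lie above the lateral values of 5.32 to 5.89, while Frzb is high in lateral array 1 alone, at 6.40.

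The closest relative of Wnt5a, Wnt5b, did not follow it. Its values were 5.83, 5.79 and 5.64 in the lateral and 5.68, 5.80 and 5.69 in the third ventricle arrays. The groups overlapped, with a difference of -0.03 (95% interval -0.25 to 0.19, limma adjusted p = 0.930). Wnt7b, a ligand of forebrain progenitors and neurons that acts through beta-catenin, had values of 5.99, 5.97 and 5.51 in the lateral and 6.05, 6.21 and 5.94 in the third ventricle arrays. Lateral array 3 was the low one and lateral arrays 1 and 2 lay within the range of the third ventricle values. The difference was 0.25 (95% interval -0.09 to 0.59, limma adjusted p = 0.536). Its relative Wnt7a lay between 5.06 and 5.25 and above the gauge in 3 arrays, with a difference of 0.07.

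Wnt4, Wnt9a, Wnt9b and Wnt10a completed the ligands above the gauge in all 6 arrays. Wnt4, best known from kidney and gonad, had means of 6.52 ± 0.20 and 6.45 ± 0.16 (SD, n = 3), a difference of -0.08. A second probe set of Wnt4, the single member with more than 1, differed by 0.14. Its values of 4.37 to 5.11 lay below the gauge in all 6 arrays, so they do not show which region had more transcript. Wnt9a had means of 5.46 ± 0.19 and 5.51 ± 0.07, Wnt9b of 5.80 ± 0.08 and 5.82 ± 0.07, and Wnt10a of 5.55 ± 0.24 and 5.49 ± 0.03 (SD, n = 3). Their differences were 0.05, 0.02 and -0.05, each smaller than the larger SD of its gene, and in all 4 genes the groups overlapped.

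The other ligands were dim. Wnt2b lay above the gauge in 5 arrays and Wnt11 in 2, with values of 5.07 to 5.48 and 4.94 to 5.18. Wnt1, Wnt2, Wnt3, Wnt3a, Wnt6, Wnt8a, Wnt8b, Wnt10b and Wnt16 lay at or below it in all 6, between 3.08 for Wnt1 and 5.09 for Wnt10b. The dim ligands include Wnt1, a signal of the midbrain boundary, and Wnt3a, Wnt2b and Wnt8b, signals of the cortical hem, the dorsomedial source of Wnts in the telencephalon. Groups did not overlap for Wnt1 (3.44 to 3.74 in the lateral, 3.08 to 3.34 in the third ventricle arrays) and Wnt6 (4.37 to 4.44 and 4.17 to 4.26). Values under the gauge do not show which region had more transcript. Differences of the other 7 lay between -0.16 for Wnt2 and 0.24 for Wnt3a.

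Release of any Wnt needs the acyltransferase Porcn, which adds the lipid, and the carrier Wls, which takes the ligand to the surface. Neither passed, although in both the groups did not overlap, and they lay on opposite sides. Wls had values of 8.55, 8.41 and 8.19 in the lateral and 8.78, 8.75 and 8.58 in the third ventricle arrays, a difference of 0.32 (95% interval 0.05 to 0.60, limma adjusted p = 0.350). Porcn had values of 6.22, 6.28 and 6.23 in the lateral and 5.90, 6.04 and 5.92 in the third ventricle arrays. Its difference was -0.29 (-0.49 to -0.08, adjusted p = 0.302).

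None of the Frizzled receptors, the membrane proteins that bind Wnts through a cysteine-rich domain, passed. Of the 10, 5 had a positive and 5 a negative difference, all between -0.25 for Fzd8 and 0.24 for Fzd9, and 8 lay above the gauge in all 6 arrays. Fzd9, a receptor best known from the developing hippocampus, had values of 5.88, 5.68 and 6.09 in the lateral and 6.07, 6.10 and 6.21 in the third ventricle arrays. Only lateral array 3 reached the third ventricle range, and the difference was 0.24 (95% interval -0.04 to 0.52, limma adjusted p = 0.449). Fzd3, which guides axon growth and planar polarity, had means of 9.65 ± 0.16 and 9.81 ± 0.10 (SD, n = 3), a difference of 0.16 (-0.10 to 0.42). Fzd7, whose promoter is shown above, had means of 7.39 ± 0.06 and 7.35 ± 0.32, with array 1 of the third ventricle at 7.72 and the other two of its group at 7.13 and 7.22.

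Several receptors varied more among the lateral cultures than between the regions. Fzd1 had lateral values of 5.63, 5.43 and 6.41 against 6.18, 5.79 and 5.99, and its means of 5.82 ± 0.52 and 5.99 ± 0.20 (SD, n = 3) differed by 0.16. Fzd2 had lateral values of 6.22, 5.95 and 5.37 against 6.08, 5.92 and 5.93. Lateral array 3 was thus the highest for Fzd1 and the lowest for Fzd2. Fzd4, the receptor of norrin in vessels, had lateral values of 5.61, 5.17 and 5.85 against 5.43, 5.13 and 5.54, a difference of -0.18 (-0.60 to 0.25). Over the members, the range within the lateral group exceeded that within the third ventricle group for 32 of 48 (66.7%), and for 66.6% of all genes.

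Fzd5, a receptor of the eye field and hypothalamus, had means of 5.74 ± 0.05 and 5.63 ± 0.21 (SD, n = 3) and a difference of -0.12. Fzd10 had means of 5.32 ± 0.15 and 5.40 ± 0.05 and a difference of 0.08. Fzd6 and Fzd8 lay below the gauge in all 6 arrays, at 4.73 to 4.94 and 4.09 to 4.59. The values of Fzd6 did not overlap between the groups, but at this signal no region can be called higher.

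The coreceptors varied little within either group. Lrp6 had values of 8.0, 8.05 and 8.01 in the lateral and 7.78, 7.82 and 7.82 in the third ventricle arrays. The groups did not overlap, and the difference of -0.22 (95% interval -0.41 to -0.02) stayed between -0.23 and -0.20 in all 13 alternatives, yet it did not pass (limma adjusted p = 0.359, and 0.264 without lateral array 2). It amounts to 1.16-fold. Lrp5, the related coreceptor, had means of 6.04 ± 0.06 and 5.96 ± 0.11 (SD, n = 3), which differed by -0.08 with overlapping groups.

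**Figure D3:**
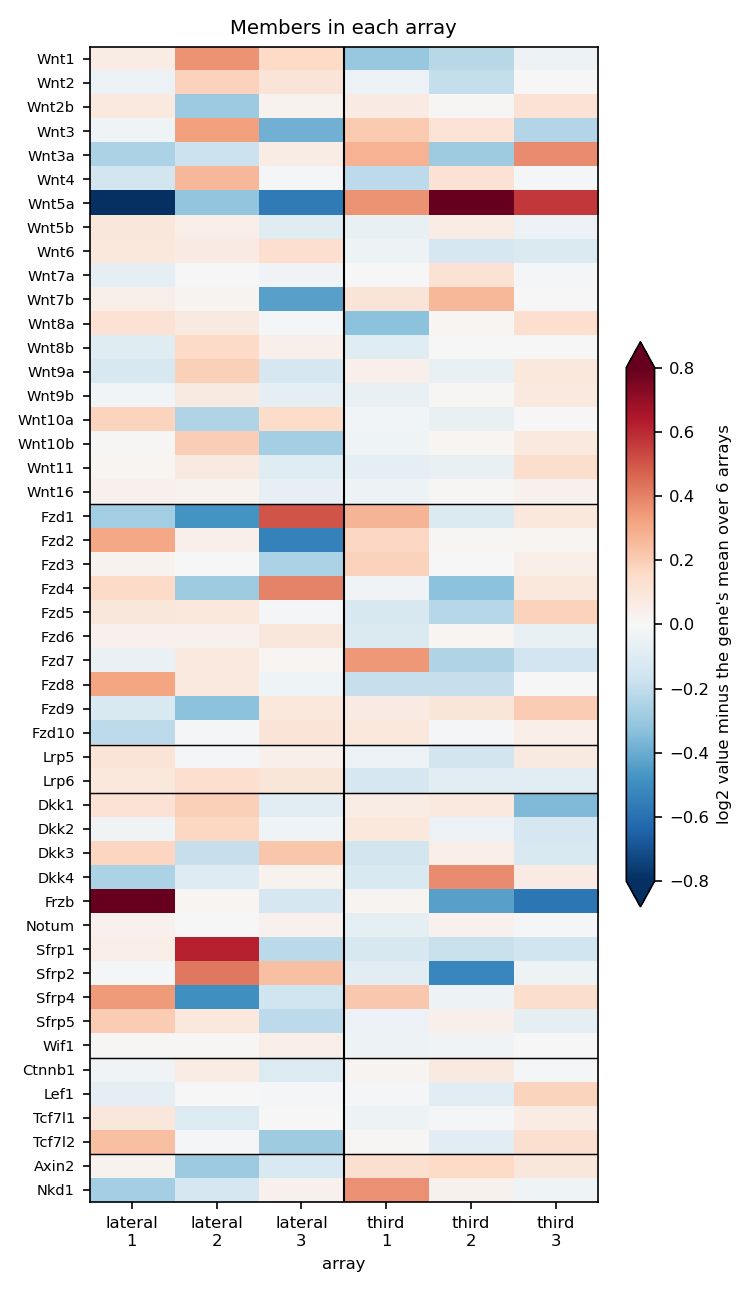
Log2 value of each of the 48 members in each of the 6 arrays minus the mean of that gene over the 6 arrays, ordered by role, with colours that saturate at -0.8 and 0.8. Wnt5a is low in all 3 lateral arrays and high in all 3 of the third ventricle, and Frzb is high in lateral array 1, while most genes show no common split by region.

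None of the 11 secreted inhibitors passed. The difference was negative for 9 of the 11, against 10886 of all 19938 genes. Only 3 of the 11 lay above the gauge in all 6 arrays, Sfrp1 and Sfrp2 with a negative and Sfrp4 with a positive difference. Outside the members, 6 further extracellular inhibitors, Sostdc1 among them, all had a positive difference, against 9052 of all 19938 genes. Their mean log2 values were 5.31 to 5.43 in the lateral and 5.49 to 5.68 in the third ventricle arrays. Of these 6, 3 lay above the gauge in all arrays and 0 passed over all 6 arrays. Secreted Frizzled-related proteins carry the Frizzled cysteine-rich domain without a membrane anchor and can bind Wnts outside the cell. Sfrp2 had values of 7.25, 7.68 and 7.50 in the lateral and 7.17, 6.74 and 7.22 in the third ventricle arrays. The groups did not overlap, though lateral array 1 and array 3 of the third ventricle lay close together, and the means were 7.48 ± 0.22 and 7.04 ± 0.26 (SD, n = 3). The difference was -0.43 (95% interval -0.80 to -0.06, limma adjusted p = 0.352). It shrank to -0.28 when array 2 of the third ventricle was left out.

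Sfrp1, which is made by radial glia of the ventricular zone, had values of 6.48, 7.05 and 6.21 in the lateral and 6.30, 6.25 and 6.27 in the third ventricle arrays. Lateral array 2 was the highest, and lateral array 3 lay below all arrays of the third ventricle. The difference of -0.31 (95% interval -0.75 to 0.14, limma adjusted p = 0.558) was -0.07 without lateral array 2. Sfrp4 ran the other way in that array, with 7.11, 6.28 and 6.61 in the lateral and 6.99, 6.73 and 6.91 in the third ventricle arrays. Its difference was 0.21 (-0.24 to 0.66) over all arrays and 0.02 without lateral array 2.

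Frzb, also called Sfrp3, had the largest negative difference among the members and rested on 1 array. Its values were 6.40, 5.30 and 5.15 in the lateral and 5.31, 4.85 and 4.71 in the third ventricle arrays. Lateral array 1 was high and the rest lay near the gauge, with 3 of 3 lateral arrays and 1 of 3 of the third ventricle above it. The difference was -0.66 (95% interval -1.40 to 0.07, limma adjusted p = 0.430), and -0.27 without lateral array 1. Astrocyte markers were high in the same array, with a mean log2 value over 6 genes of 6.05 there. The other two lateral arrays had 5.52 and 5.53, and those of the third ventricle 5.43 to 5.56. Aqp4 lay at 6.81 there and between 5.14 and 5.49 elsewhere, while Gfap and Gjb6 lay below the gauge in all 6. Lateral array 1 also had the highest neuronal mean, 6.28 against 6.06 in both other lateral arrays, and the lowest cell cycle mean, 7.25. The part of any of these in the Frzb value was not tested.

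Of the Dickkopf genes, Dkk1, Dkk2 and Dkk4 encode ligands of LRP5 and LRP6 that act on Wnt signalling, and Dkk3 a divergent relative, and all were near background. Dkk1 lay between 4.62 and 5.16, above the gauge in 2 arrays, Dkk2 between 5.09 and 5.39, above it in 5, and Dkk3 between 4.72 and 5.13, above it in 1. Dkk4 lay below it in all, at 4.18 to 4.81. Of the remaining inhibitors, Notum, which removes the lipid from Wnts, lay between 5.07 and 5.18, Wif1, which binds Wnts directly, between 4.86 and 4.95 and Sfrp5 between 4.30 and 4.71. The differences of these 7 genes lay between -0.14 for Dkk1 and Dkk3 and 0.22 for Dkk4. The values of Wif1 did not overlap between the groups, but all 6 were below the gauge.

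Inside the cell, none of the 4 transducers differed by more than 0.06. Ctnnb1 had values of 9.28, 9.37 and 9.20 in the lateral and 9.33, 9.38 and 9.29 in the third ventricle arrays. The groups overlapped almost fully, and the interval of the difference ran from -0.16 to 0.26. Tcf7l1, which mostly represses in the absence of beta-catenin, had means of 6.19 ± 0.10 and 6.21 ± 0.05 (SD, n = 3). Tcf7l2, the TCF factor that marks the thalamus in the embryo, had values of 8.81, 8.56 and 8.29 in the lateral and 8.58, 8.49 and 8.70 in the third ventricle arrays, a difference of 0.04 (95% interval -0.28 to 0.36). Lef1 lay between 4.89 and 5.15 and above the gauge in 1 array.

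Both feedback genes had a positive difference of 0.25 that did not pass. Axin2, a scaffold of the beta-catenin destruction complex and the most used readout of beta-catenin signalling, had values of 6.21, 5.89 and 6.06 in the lateral and 6.31, 6.34 and 6.27 in the third ventricle arrays. The groups did not overlap, with lateral array 1 close to the third ventricle range, and the interval was 0.00 to 0.49 (limma adjusted p = 0.389). Without lateral array 2 the difference was 0.17 (adjusted p = 0.409). Nkd1, which binds Dishevelled and damps the signal, had values of 6.55, 6.69 and 6.86 in the lateral and 7.19, 6.86 and 6.79 in the third ventricle arrays, which overlapped (interval -0.07 to 0.56, adjusted p = 0.499).

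**Figure D4:**
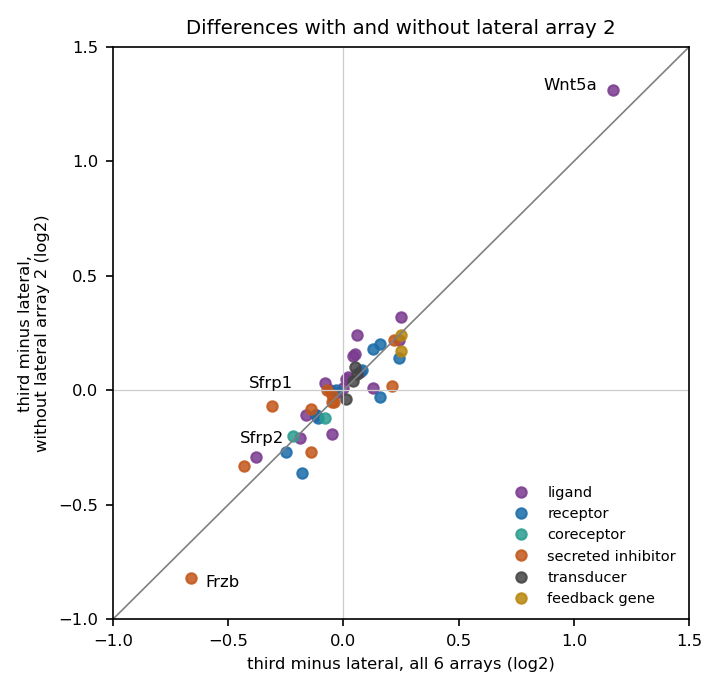
Difference of each of the 48 members with all 6 arrays (horizontal axis, log2) against the difference without lateral array 2 (vertical axis, log2), with the line of equality. Both axes use the same 3 arrays of the third ventricle. Wnt5a moves from 1.17 to 1.31 and Sfrp1 from -0.31 to -0.07.

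Of 81 other genes of the pathway, 1 passed over all 6 arrays, the R-spondin receptor Lgr5. Of the 81, 61 lay above the gauge in all 6 arrays and 14 in none, and the groups did not overlap for 14 (17.3%, against 17.0% of all genes). Lgr5 lay at 4.73, 5.03 and 4.87 in the lateral arrays, none above the gauge, and at 5.91, 5.63 and 5.73 in the third ventricle arrays, at least 1.56-fold higher against the gauge (limma adjusted p = 0.0367). The call was lost when any array other than lateral array 2 was left out (adjusted p 0.0912 to 0.245). Without lateral array 2, 2 of the 81 passed (2.47%), against 8.25% of all genes. The second was Sostdc1, an inhibitor that binds LRP5 and LRP6, with lateral values of 4.70, 4.62 and 4.84 and values of 5.35, 5.22 and 5.45 in the third ventricle arrays. No lateral value lay above the gauge. The difference was 0.57 without lateral array 2 (limma adjusted p = 0.0178) and 0.62 over all arrays (0.0863). Set against the gauge over all arrays, it was at least 1.17-fold, again with no interval.

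The other 79 pathway genes did not pass in either fit. Of the 10 further receptors and cofactors, 0 passed, with Ryk, a Wnt receptor of the tyrosine kinase type, at 0.21 and Ndp, the Fzd4 ligand norrin, at -0.36. The groups did not overlap for 2 of the 10 (20.0%, against 17.0% of all genes), Ryk and Ror1, both higher in the third ventricle arrays. Ror1 and Ror2, which are receptors of Wnt5a, had smaller differences than Wnt5a. Their differences were 0.17 (95% interval -0.06 to 0.39) and -0.01 (-0.27 to 0.25), and Ror1 lay above the gauge in 4 arrays and Ror2 in 6. Ror1 and Ror2 are named here outside the naming rule, after their values were seen. Of 21 cytoplasmic genes 0 passed, with Dact1, a Dishevelled partner, at 0.37 and Fbxw11, a ubiquitin ligase subunit, at -0.26. Of 12 nuclear genes 0 passed, with the corepressor Tle1 at -0.50 and Pygo1 at -0.15. Of 10 planar polarity and GTPase genes 0 passed, with Vangl2 at 0.22 and Rac1 at 0.20.

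Of 9 further targets, which many other signals also drive, 0 passed. Ccnd1, a cyclin of the early cell cycle, had values of 7.28, 9.09 and 8.81 in the lateral and 9.06, 9.37 and 9.33 in the third ventricle arrays. Lateral array 1 was the low one, whereas the cell cycle genes were low in lateral arrays 1 and 3, and the difference of 0.86 had an interval of -0.09 to 1.81 (limma adjusted p = 0.429). Id2, a helix-loop-helix inhibitor, went the other way, with 8.84, 8.13 and 8.13 in the lateral and 8.10, 7.43 and 6.92 in the third ventricle arrays. The groups did not overlap, though array 1 of the third ventricle lay close to lateral arrays 2 and 3, and the difference of -0.89 (-1.59 to -0.19) did not pass (adjusted p = 0.336).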

How the data were processed

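Total RNA of 6 cultures was amplified from 500 pg to 50 ng and hybridised to Affymetrix mouse gene arrays, 1 culture per array, per the labels' protocols. The deposited table holds log2 RMA values, which the authors computed in version 1.1 of Affymetrix Expression Console, as the submitters' processing notes list it. The sources used here name no further settings. Of 35556 probe sets, 21789 had 1 gene symbol in the platform annotation, 1621 had several and 12146 were unlisted. Each of 19938 genes took its probe set with the highest mean.

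The regions were compared with limma 3.58.1 in R 4.3.3 (lmFit and eBayes, prior degrees of freedom 4.04), p-values adjusted over all genes by Benjamini-Hochberg and a call threshold of 0.05. An exact permutation test of 3 against 3 arrays cannot go below p = 0.1 and was not used. Precision is limited by the number of arrays. The fit was tested on simulated data.

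Every member was named, with values by array for those that did not overlap, passed, or were among the 12 largest differences, and ranges for dim ones. Of each further pathway list, genes that passed, or otherwise the 2 largest differences above the gauge, were named. Members, lists and the gauge were chosen with earlier results of these data known.

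The alternatives were other normalizations, a mean over probe sets, a filter on dim genes, other variance settings, a replicate block and leaving out each array.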

Additional observations from a re-analysis of the deposited data

How the results depend on the processing

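The differences were recomputed under 13 alternatives, and the number of genes called depended on single arrays. Genes passing numbered 46, 158 with array weights and 4 to 1644 when 1 array was left out. The 1644 came without lateral array 2, against 25 and 20 without lateral arrays 1 and 3 and 7, 4 and 4 without arrays 1, 2 and 3 of the third ventricle. Of the members, 0 passed, against 1 (Wnt5a) under cyclic loess, with a trended and robust prior, with array weights and with the replicate block, and 0 to 1 with an array left out. Of the other pathway genes 1 passed, against 0 with the replicate block, where Lgr5 had an adjusted p of 0.0993 in limma, and 0 to 2 with an array left out. The members' median difference of -0.0142 was 0.0288 without the lowest 40% of genes, which left 30 members. The filter leaves each remaining gene's difference unchanged, so that move comes from the fewer members. With an array left out the median ran from -0.0366 to 0.0113, and the cause was not tested.

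The same-number arrays of the regions had deviations from their group means that correlated at 0.24, 0.11 and 0.07. Each array correlated best with its own number, a hint from the data and not the design. The labels do not say whether the arrays are paired, and these correlations do not settle it. The main fit did not pair them. The replicate block called 57 genes, and Wnt5a had an adjusted p of 0.0185 with it.

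A total of 29 members kept their sign in every alternative run, Wnt5a, Lrp6, Sfrp2, Frzb and Axin2 among them. The other 19 were small, at most 0.16 in size. Wnt4 turned to 0.03 with the mean of its probe sets and Tcf7l1 to -0.0023 with array weights. With an array left out, the difference ranged from -0.12 to 0.24 for Wnt3, -0.17 to 0.03 for Wnt4, -0.08 to 0.0084 for Wnt5b, -0.21 to 0.02 for Wnt8a, -0.13 to 0.00069 for Wnt8b, -0.009 to 0.16 for Wnt9a, -0.01 to 0.06 for Wnt9b, -0.19 to 0.02 for Wnt10a, -0.08 to 0.15 for Wnt10b, -0.06 to 0.05 for Wnt11, -0.03 to 0.02 for Wnt16, -0.03 to 0.46 for Fzd1, -0.11 to 0.31 for Fzd2, -0.21 to 0.08 for Fzd7, -0.00084 to 0.15 for Fzd10, -0.17 to 0.04 for Sfrp5, -0.01 to 0.12 for Lef1, -0.04 to 0.06 for Tcf7l1 and -0.09 to 0.16 for Tcf7l2.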
